A study of Mus musculus with 4 samples.

Results

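Tubulins and the enzymes that modify them were followed in the testes of juvenile mice labelled as Znhit1 knockout or as control. The members are defined by symbol, as every alpha-, beta-, gamma-, delta- and epsilon-tubulin gene together with the Ttll, Agbl and Tpgs families, and holds 40 of the 55335 genes in the deposited table. Of these, 20 are tubulin genes and 20 are genes of enzymes or enzyme subunits. Gene expression was measured by sequencing poly(A) RNA from fresh testes at P14, taken here as postnatal day 14, in 2 libraries of genotype Znhit1_KO and 2 of genotype CTRL. ZNHIT1 belongs to the SRCAP complex, a remodeller that places the histone variant H2A.Z into nucleosomes, and the series asks how that deposition bears on gene expression in meiotic prophase. The labels name the cells testis cells, the design text speaks of germ cells, and no purification is described. The sources used here name no allele, Cre driver, strain or number of animals per library. The labels call the replicates biological and independent.

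Microtubules are built from dimers of alpha- and beta-tubulin, each encoded by several genes whose products are called isotypes. The isotypes differ most at their carboxy-terminal tails, which stick out from the microtubule surface and carry chains of glutamate or glycine added after translation. Enzymes of the TTLL family add these residues, and cytosolic carboxypeptidases encoded by the Agbl genes remove glutamate again. In the testis such modified microtubules form the spindle of dividing germ cells, the manchette that shapes the spermatid head and the axoneme of the sperm tail, while Sertoli cells hold long microtubule bundles of their own.

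The coding ends of 6 isotypes are shown because they encode the tails on which the enzymes act. Each line gives the last 16 codons before the stop codon, 48 bases, 5′ to 3′, from the GENCODE M21 transcripts (mm10), with in-frame GAA and GAG codons, both of which encode glutamate, in capitals.
Tuba3a: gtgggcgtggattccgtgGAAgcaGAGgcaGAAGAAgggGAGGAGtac
Tuba3b: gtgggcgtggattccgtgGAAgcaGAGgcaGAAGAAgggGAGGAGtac
Tubb4b: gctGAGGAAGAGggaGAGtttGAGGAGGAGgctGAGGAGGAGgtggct
Tubb5: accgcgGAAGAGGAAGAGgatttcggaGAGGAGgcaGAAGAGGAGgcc
Tubb2a: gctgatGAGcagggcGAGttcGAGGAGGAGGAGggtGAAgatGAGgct
Tubb2b: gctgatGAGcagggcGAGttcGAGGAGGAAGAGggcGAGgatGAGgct
Tuba3a and Tuba3b have the same 48 bases, with 6 glutamate codons and a final tac codon. Tubb4b carries 10 glutamate codons in this stretch, Tubb5 has 9, and Tubb2a and Tubb2b have 8 each. The 1353-base coding sequences of Tuba3a and Tuba3b differ at 41 positions (97.0% identity). Those of Tubb2a and Tubb2b, 1338 bases long, differ at 47 positions (96.5%), and those of Tuba1a and Tuba1b, 1356 bases long, at 23 (98.3%). Of the 50-base windows of the Tuba1b transcript, 73.8% occur in a transcript of another gene, against 72.9% for Tuba1a, 61.0% for Tuba1c, 50.9% for Tubb4b, 49.6% for Tubb2a, 39.3% for Tubb2b, 33.6% for Tuba3a and 29.5% for Tuba3b. The division of reads among these copies is therefore uncertain. No such window was shared by Tubb3, Tubb6, Tubd1, Tube1, Ttll13, Ttll6, Agbl3, Agbl4 or Agbl5.

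The Znhit1 transcript, the check of the labels, stood at 17.3 CPM (counts scaled to library size) in CTRL replicate 1 and 31.9 CPM in replicate 2, and at 3.15 and 2.14 CPM in Znhit1_KO. Throughout, paired values are given in replicate order. Summed estimated counts ranged from 129531714 to 157790457 per library. Marker lists of the cell types of the testis were read beside the members. The 10 pachytene spermatocyte markers summed to 1780 and 3455 CPM in the CTRL libraries and to 976 and 1404 CPM in the Znhit1_KO ones, so that CTRL replicate 2 stood apart. All 10 of them were lower in both Znhit1_KO libraries, beside 21.3% of all genes tested, with a median log2 change of -1.73. The marker lists were picked with earlier results of these data known. The 12 Sertoli cell markers summed to 5878 and 6094 CPM in CTRL and 8344 and 7020 in Znhit1_KO. Clu alone held 3582 and 3937 CPM of the CTRL sums, so the Sertoli marker scaling used below rests mostly on this gene. The log2 change of Clu was 0.31, and the median of the 12 was 0.46. Of these 12, 10 were higher in both Znhit1_KO libraries, beside 21.8% of all genes tested. Leydig cell markers had positive log2 changes in 6 of 7 genes and macrophage markers in 7 of 7, with medians of 0.40 and 0.67. Of all 24116 genes tested, 12795 had a positive log2 change. The authors' deposited table marks the Leydig genes Cyp11a1 and Cyp17a1 higher, beside 0.277% of all genes listed in it. Peritubular myoid and spermatogonial markers had medians of -0.0026 and -0.099. Endothelial markers had positive log2 changes in 4 of 5 genes, with a median of 0.22. Markers of preleptotene to zygotene spermatocytes had negative log2 changes in 7 of 7 genes, beside 46.9% of all genes tested, with a median of -0.30. Of these 7, 3 were lower in both Znhit1_KO libraries. The part of these markers in the members' values was not tested. The 8 round spermatid markers summed to 11.0 to 33.5 CPM over the 4 libraries. In whole testis RNA, fewer cells of a type and less RNA per cell cannot be told apart, which touches every value that follows.

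Of the 40 members, 37 passed the filter on low counts and were tested with the quasi-likelihood test of edgeR across 24116 genes. None of the 37 passed an adjusted p of 0.05, as was the case for all genes (0% called), and the lowest adjusted p among the members was 0.264. At an unadjusted p under 0.05, 10 members were lower and 4 higher, beside 7.75% and 2.99% of all genes. DESeq2 called 7 members at an adjusted p under 0.05, of which Agbl4, Agbl2, Ttll13, Ttll6 and Ttll1 were lower and Tubb2a and Tubb2b higher. Without CTRL replicate 1 edgeR called 626 genes, among them 4 members, Agbl2, Agbl4, Tuba3b and Ttll13, and without any other library it called 0. Over all genes DESeq2 called 3.86% lower and 0.46% higher. The authors' deposited table lists 38 members and marks 4 of them lower and 1 higher, against 3.22% and 0.277% of all genes listed. Members whose 2 Znhit1_KO libraries both lay below the 2 CTRL libraries numbered 14, and those with both above numbered 9; over all genes the shares were 21.3% and 21.8%. With the libraries scaled to equal Sertoli marker counts, 23 members were lower and 2 higher. That scaling moved the median log2 change of all genes from 0.031 to -0.32. The shares over all genes at that scaling are not given here, so nothing is read from the counts of 23 and 2.

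**Figure D1:**
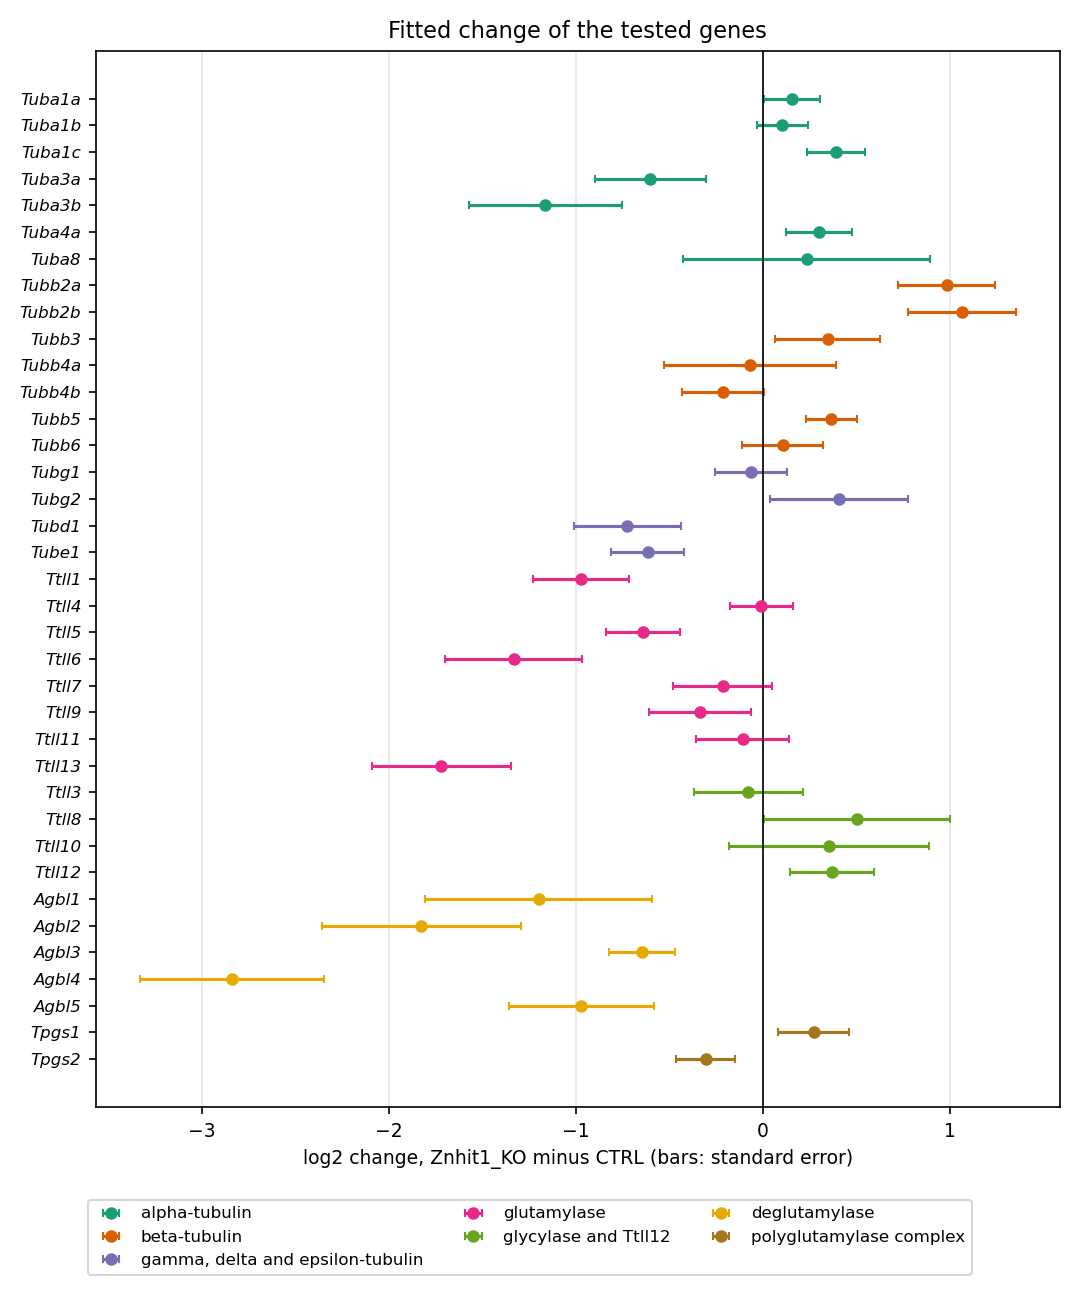
Log2 change of each of the 37 tested genes (horizontal axis, Znhit1_KO minus CTRL, edgeR) with its standard error as a bar, coloured by function. All 5 deglutamylase genes lie left of 0, with Agbl4 farthest at -2.84, while the beta-tubulins Tubb2a and Tubb2b lie farthest right at 0.98 and 1.06.

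The deglutamylase genes were the lowest group. Agbl1 to Agbl5 encode cytosolic carboxypeptidases that shorten glutamate chains. In all 5 the Znhit1_KO libraries both lay below the CTRL ones, beside 21.3% of all genes tested. Their median log2 change was -1.20, beside 0.031 over all genes tested. That median is the value of Agbl1, the scarcest of the 5 by CPM. By edgeR, 3 of the 5 were lower at an unadjusted p under 0.05, beside 7.75% of all genes. Agbl4, which encodes CCP6, stood at 3.36 and 7.28 CPM in CTRL and 0.620 and 0.864 CPM in Znhit1_KO. Its Znhit1_KO mean was 13.9% of the CTRL mean, with a log2 change of -2.84 (SE 0.493; edgeR adjusted p = 0.264), and -2.18 without CTRL replicate 2. Agbl4 (ENSMUSG00000061298.14, chr4:110397661-111664324, mm10) is a protein-coding gene that spans over a megabase. The authors' deposited table gives it a log2 change of -2.84, an adjusted p of 3.69e-07 and the mark for lower.

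Agbl2, encoding CCP2, stood at 63.9 and 168 CPM in CTRL and 23.0 and 42.3 CPM in Znhit1_KO. The groups did not overlap, and the CTRL libraries lay far apart. The log2 change was -1.83 (SE 0.532; edgeR adjusted p = 0.345), and -0.97 without CTRL replicate 2. The authors' deposited table marks Agbl2 lower, with an adjusted p of 0.00352. Agbl5, encoding CCP5, which removes the glutamate at a chain's branch point, was the most abundant of the family by TPM, a level per transcript length, and stood at 167 and 331 CPM in CTRL and 98.0 and 156 CPM in Znhit1_KO. CTRL replicate 1 and Znhit1_KO replicate 2 were close, and the log2 change of -0.97 (SE 0.389) had an edgeR adjusted p of 0.472. Without CTRL replicate 2 it was -0.40. Its exons overlap those of Ost4 on the opposite strand over 9.60% of their length.

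Agbl3, encoding CCP3, had the tightest replicates of the family, at 32.6 and 35.2 CPM in CTRL and 20.1 and 23.3 CPM in Znhit1_KO. Both Znhit1_KO libraries lay well below, and the log2 change was -0.65 (SE 0.178; edgeR adjusted p = 0.330). Agbl1, encoding CCP4, was scarce, at 0.622 and 0.413 CPM in CTRL and 0.298 and 0.151 CPM in Znhit1_KO, with a log2 change of -1.20 (SE 0.607). Summed over the 5 genes, the authors' TPM came to 211 and 368 in CTRL and 113 and 169 in Znhit1_KO.

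Glutamate-adding enzymes split into genes that stood lower and genes that overlapped. Of the 9 glutamylase genes 8 were tested, all 8 with a negative log2 change, though that of Ttll4 was positive with total count scaling. Of these 8, 5 were lower in both Znhit1_KO libraries and 4 were lower at an edgeR unadjusted p under 0.05. Over all genes tested, 46.9% had a negative change, 21.3% were lower in both libraries and 7.75% were lower at that p. The median log2 change of the 8 glutamylases was -0.49, and -0.23 without CTRL replicate 2. Ttll13, an enzyme that lengthens glutamate chains, stood at 44.4 and 84.5 CPM in CTRL and 15.9 and 23.2 CPM in Znhit1_KO. Both Znhit1_KO libraries lay clearly below, and the log2 change was -1.72 (SE 0.371; edgeR adjusted p = 0.276), and -1.18 without CTRL replicate 2. Ttll6, a second chain-lengthening enzyme, stood at 8.13 and 14.1 CPM in CTRL and 3.67 and 5.16 CPM in Znhit1_KO. Its log2 change was -1.33 (SE 0.365; edgeR adjusted p = 0.329), and -0.88 without the same library. The authors' deposited table marks both lower, with adjusted p of 0.000229 for Ttll13 and 0.0128 for Ttll6.

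Ttll1, the catalytic subunit of the polyglutamylase complex, stood at 14.6 and 21.2 CPM in CTRL and 9.63 and 8.61 CPM in Znhit1_KO. The Znhit1_KO mean was 50.9% of the CTRL mean, with a log2 change of -0.97 (SE 0.259; edgeR adjusted p = 0.325). In the authors' deposited table its adjusted p is 0.0250, without a mark. Ttll5, which starts glutamate chains, stood at 135 and 187 CPM in CTRL and 102 and 105 CPM in Znhit1_KO, with a log2 change of -0.64 (SE 0.198; edgeR adjusted p = 0.369), and -0.39 without CTRL replicate 2. Ttll9, at 6.60 and 9.46 CPM in CTRL and 6.49 and 6.20 CPM in Znhit1_KO, was separated from CTRL replicate 1 by a small gap only. Its log2 change was -0.34 (SE 0.273), and -0.056 without CTRL replicate 2.

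The remaining tested glutamylases overlapped between groups in CPM, though not all of them in TPM. Ttll4, another enzyme that starts chains, stood at 197 and 178 CPM in CTRL and 206 and 167 CPM in Znhit1_KO, a log2 change of -0.0086 (SE 0.169). Ttll7, which acts on beta-tubulin, stood at 4.84 and 5.97 CPM in CTRL and 4.34 and 4.98 CPM in Znhit1_KO. Ttll11 stood at 5.04 and 5.91 CPM in CTRL and 5.20 and 4.96 CPM in Znhit1_KO. Mean CPM in Znhit1_KO was 99.4%, 86.1% and 92.7% of CTRL for these 3 genes. In the authors' TPM, Ttll7 was lower in both Znhit1_KO libraries, at 4.14 and 4.03 in CTRL and 2.07 and 3.40 in Znhit1_KO. Ttll11 was higher in both by TPM, at 5.39 and 5.09 in CTRL and 5.85 and 5.74 in Znhit1_KO. Ttll2 reached at most 0.0506 CPM and was not tested. Per length, the 8 listed glutamylases summed to 229 and 269 TPM in CTRL and to 166 and 163 TPM in Znhit1_KO. The ratio of summed deglutamylase to summed glutamylase TPM stood at 0.921 and 1.37 in CTRL and 0.681 and 1.04 in Znhit1_KO, so the groups overlapped.

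**Figure D2:**
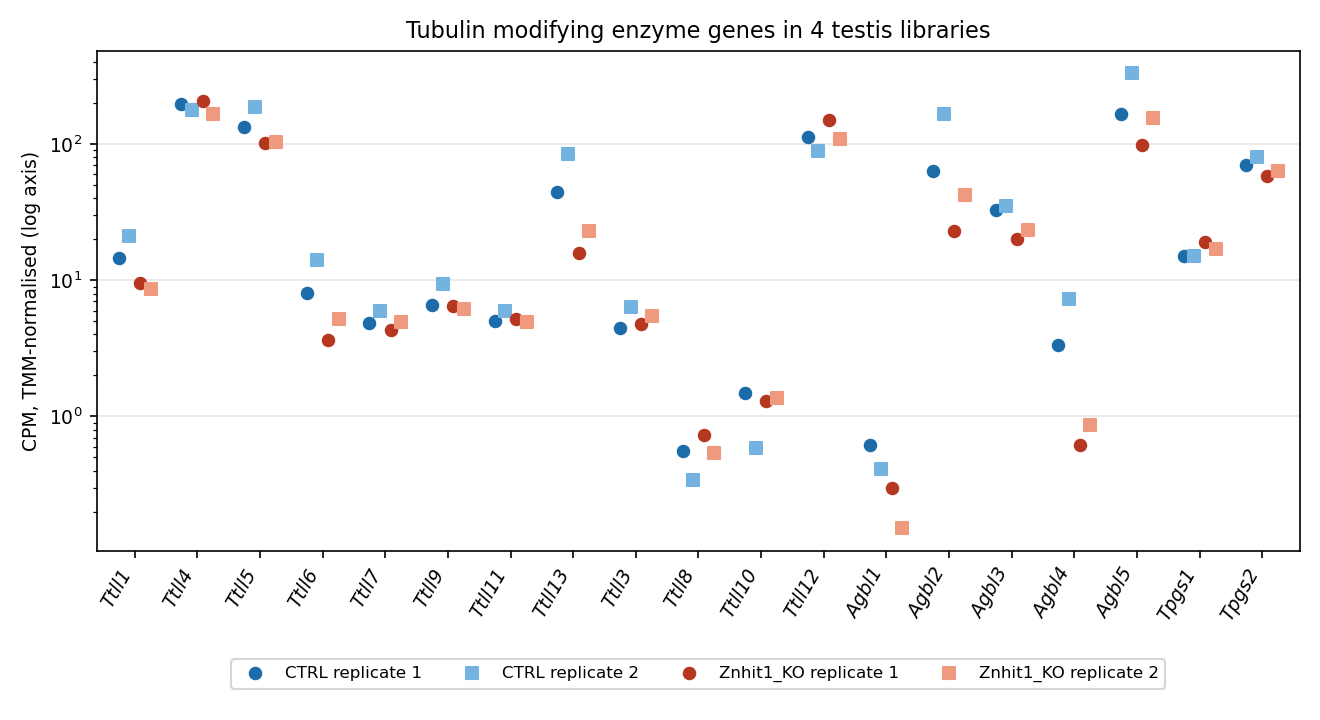
CPM (log axis) of the 19 tested enzyme and subunit genes in each library, blue for CTRL and red for Znhit1_KO, circles for replicate 1 and squares for replicate 2. Both red points lie under both blue ones for each Agbl gene and for Ttll1, Ttll5, Ttll6, Ttll9, Ttll13 and Tpgs2, while the points of Ttll4 overlap.

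TTLL1 works with non-catalytic partners, among them the products of Tpgs1 and Tpgs2. Tpgs2 stood at 70.0 and 80.6 CPM in CTRL and 58.6 and 63.0 CPM in Znhit1_KO, a log2 change of -0.31 (SE 0.157; edgeR adjusted p = 0.554), and -0.20 without CTRL replicate 2. Tpgs1 stood at 15 and 15.1 CPM in CTRL and 19.1 and 17.1 CPM in Znhit1_KO; its log2 change of 0.27 (SE 0.190) turned to -0.086 with Sertoli marker scaling. Of 3 further partners of the complex, Lrrc49 stood at 45.8 and 63.9 CPM in CTRL and 24.4 and 25.9 CPM in Znhit1_KO, and the authors' deposited table marks it lower. Its log2 change was -1.12 (SE 0.216; edgeR adjusted p = 0.264). The gene 1110051M20Rik had a log2 change of -0.79 (SE 0.221) and Nicn1 one of -0.22 (SE 0.250). None of the 3 passed edgeR over all genes, and 2 were lower at an unadjusted p under 0.05, beside 7.75% of all genes.

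Glycine-adding enzymes and Ttll12 all overlapped between groups. Ttll3, which starts glycine chains, stood at 4.45 and 6.42 CPM in CTRL and 4.81 and 5.47 CPM in Znhit1_KO, with a log2 change of -0.080 (SE 0.292). Its exons include bases of Arpc4 on the same strand. Ttll8 was scarce, between 0.343 and 0.734 CPM, and shares exon bases with a more abundant transcript, AC117700.1. Ttll10, which lengthens glycine chains, stood at 1.5 and 0.584 CPM in CTRL and 1.30 and 1.36 CPM in Znhit1_KO. Ttll12, a family member not known to add glutamate, stood at 112 and 88.7 CPM in CTRL and 151 and 109 CPM in Znhit1_KO. Its log2 change of 0.37 (SE 0.224) became -0.0048 with Sertoli marker scaling. The median of these 4 genes was 0.36, which was -0.0047 with Sertoli marker scaling and 0.72 without CTRL replicate 1. None of the 4 had an unadjusted p under 0.05.

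Among the alpha-tubulins, the testis isotypes Tuba3a and Tuba3b had negative log2 changes, while the broadly expressed Tuba1a, Tuba1b and Tuba4a had positive ones that turned negative with Sertoli marker scaling. Tuba3b (ENSMUSG00000067338.6, chr6:145615757-145621479, mm10) stood at 556 and 1167 CPM in CTRL and 298 and 470 CPM in Znhit1_KO. The groups did not overlap, and the log2 change was -1.16 (SE 0.410; edgeR adjusted p = 0.422). Without CTRL replicate 2 it was -0.53. Tuba3a stood at 597 and 1013 CPM in CTRL and 461 and 600 CPM in Znhit1_KO, where Znhit1_KO replicate 2 reached CTRL replicate 1; in TPM both Znhit1_KO libraries were lower, at 1041 and 1547 in CTRL and 778 and 1003 in Znhit1_KO. Its log2 change was -0.60 (SE 0.295; edgeR adjusted p = 0.539), and -0.17 without CTRL replicate 2. The ratio of Tuba3b to Tuba3a TPM stood at 0.792 and 0.979 in CTRL and 0.550 and 0.667 in Znhit1_KO, lower in both Znhit1_KO libraries.

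Tuba1c stood at 144 and 125 CPM in CTRL and 185 and 168 CPM in Znhit1_KO, a log2 change of 0.39 (SE 0.153; edgeR adjusted p = 0.464), and of 0.032 with Sertoli marker scaling. Tuba1a, at 445 and 417 CPM in CTRL and 510 and 451 CPM in Znhit1_KO, had a log2 change of 0.16 (SE 0.149), and Tuba1b, at 400 and 405 CPM in CTRL and 428 and 435 CPM in Znhit1_KO, one of 0.10 (SE 0.136). With Sertoli marker scaling these were -0.20 and -0.25, and without Znhit1_KO replicate 1 that of Tuba1a was 0.092. The TPM of Tuba1a overlapped between groups. Both share exon bases with the annotated gene Gm49450, which spans them. Tuba4a, whose product lacks an encoded terminal tyrosine, stood at 19.4 and 19.2 CPM in CTRL and 24.7 and 22.9 CPM in Znhit1_KO; 37.3% of its exon bases overlap Stk16 on the opposite strand. Its log2 change of 0.30 (SE 0.175) was -0.055 with Sertoli marker scaling. Tuba8 lay between 0.228 and 0.598 CPM and Tubal3 at or below 0.104 CPM.

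As a share of summed alpha-tubulin TPM, Tuba3a and Tuba3b together made up 56.0% and 71.3% in CTRL and 42.8% and 52.7% in Znhit1_KO. Tuba1a, Tuba1b and Tuba1c together made up 43.4% and 28.3% in CTRL and 56.3% and 46.6% in Znhit1_KO. A share within a library does not depend on how libraries are scaled. The groups did not overlap in either share, though CTRL replicate 1 and Znhit1_KO replicate 2 lay close together. In an exact two-sided permutation test 2 libraries against 2 cannot give a p below 0.333. Summed alpha-tubulin TPM came to 3332 and 4292 in CTRL and to 2816 and 3169 in Znhit1_KO.

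**Figure D3:**
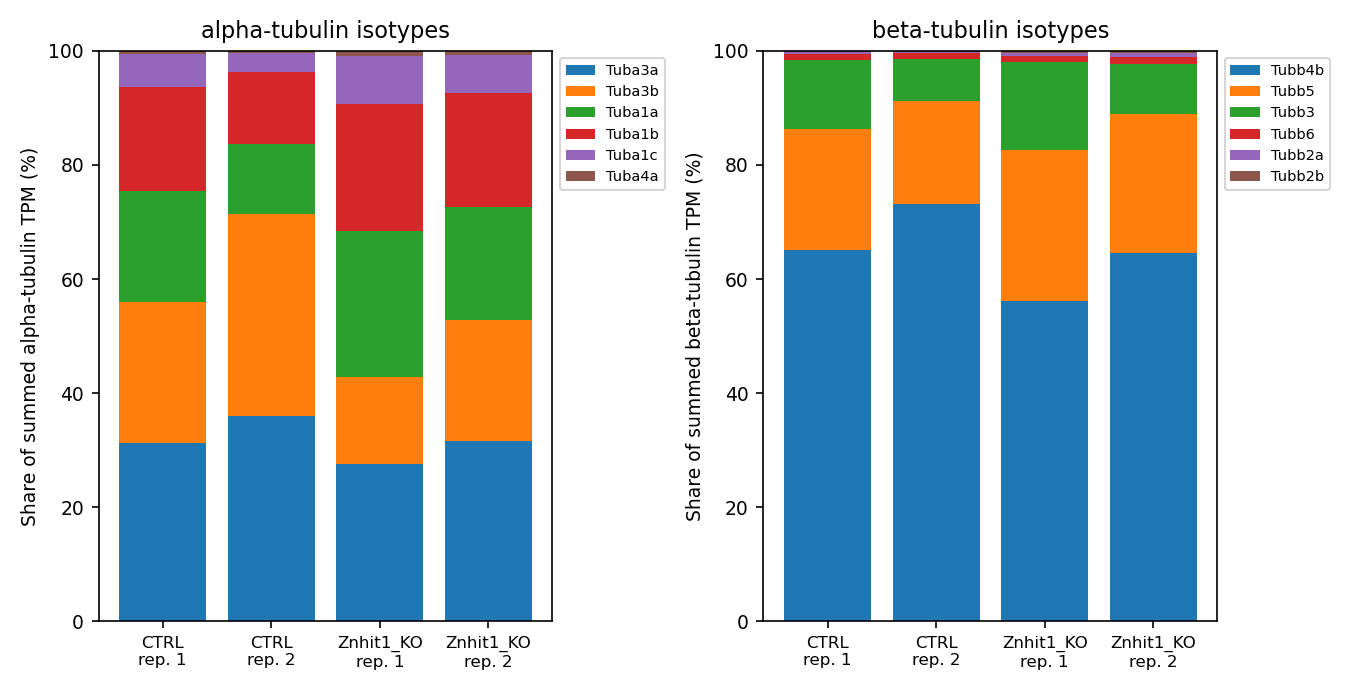
Share of each isotype in the summed TPM of its family (vertical axis, percent) in each of the 4 libraries, alpha-tubulins on the left and beta-tubulins on the right; isotypes under 0.1% are not drawn. The Tuba3a and Tuba3b segments together reach 71.3% in CTRL replicate 2 and 42.8% in Znhit1_KO replicate 1.

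Beta-tubulins had no member lower in both Znhit1_KO libraries, and 3 were higher in both, namely Tubb2a, Tubb2b and Tubb5. Over all genes the shares were 21.3% and 21.8%. Tubb2a stood at 4.21 and 3.83 CPM in CTRL and 7.05 and 8.84 CPM in Znhit1_KO. Its Znhit1_KO mean was 197% of the CTRL mean, with a log2 change of 0.98 (SE 0.257; edgeR adjusted p = 0.325). Tubb2b, an isotype known from developing neurons, stood at 2.19 and 1.81 CPM in CTRL and 4.05 and 4.33 CPM in Znhit1_KO. Replicates were close in both groups, and the log2 change was 1.06 (SE 0.290; edgeR adjusted p = 0.326). With Sertoli marker scaling the changes were 0.64 for Tubb2a and 0.71 for Tubb2b. The authors' deposited table marks Tubb2b higher, with an adjusted p of 0.0398, and leaves Tubb2a unmarked at 0.0296. The genes lie near each other on chromosome 13, Tubb2a at chr13:34074274-34078007 and Tubb2b at chr13:34126748-34130466.

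Tubb5, an isotype of most cells, stood at 361 and 377 CPM in CTRL and 476 and 474 CPM in Znhit1_KO. Replicates were nearly equal within each group, and the log2 change was 0.36 (SE 0.137; edgeR adjusted p = 0.452), against 0.015 with Sertoli marker scaling. Tubb4b, an isotype of cilia and testis and by TPM the most abundant beta-tubulin, stood at 678 and 925 CPM in CTRL and 614 and 768 CPM in Znhit1_KO. Its groups overlapped, with a log2 change of -0.21 (SE 0.218) that was 0.026 without CTRL replicate 2. In share of beta-tubulin TPM, Tubb4b made up 65.1% and 73.2% in CTRL and 56.1% and 64.6% in Znhit1_KO, and Tubb5 made up 21.2% and 18.1% in CTRL and 26.5% and 24.3% in Znhit1_KO. The Tubb4b shares of CTRL replicate 1 and Znhit1_KO replicate 2 were nearly equal.

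Tubb3, a neuronal isotype also made by Sertoli cells, stood at 144 and 108 CPM in CTRL and 198 and 122 CPM in Znhit1_KO. It overlapped between groups, and its log2 change of 0.34 (SE 0.282) was -0.038 with Sertoli marker scaling. Tubb6 lay between 12.1 and 15.4 CPM, Tubb4a between 0.467 and 0.696 CPM and Tubb1, the platelet isotype, at or below 0.104 CPM, each with overlap. The median log2 change was 0.16 over the 7 tested alpha-tubulins and 0.34 over the 7 tested beta-tubulins, and with Sertoli marker scaling -0.20 and -0.038. That scaling moved the median of all genes from 0.031 to -0.32. Summed beta-tubulin TPM overlapped between groups, at 1719 and 1824 in CTRL and 1750 and 1883 in Znhit1_KO.

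**Figure D4:**
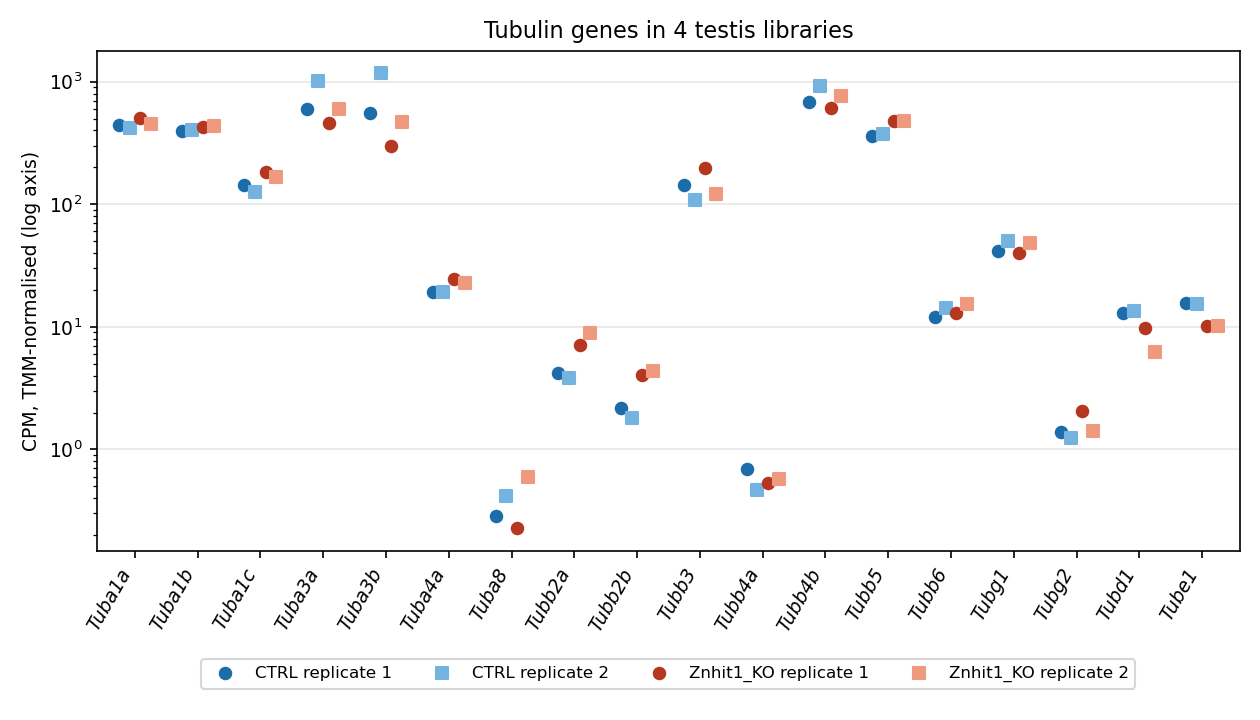
CPM (log axis) of the 18 tested tubulin genes in each library, blue for CTRL and red for Znhit1_KO, circles for replicate 1 and squares for replicate 2. Tuba3b, Tubd1 and Tube1 have both red points under both blue ones. In 8 genes they lie above, namely Tuba1a, Tuba1b, Tuba1c, Tuba4a, Tubb2a, Tubb2b, Tubb5 and Tubg2.

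Of the less abundant tubulin families, the centriolar ones stood lower in both Znhit1_KO libraries. Tubd1 and Tube1 encode delta- and epsilon-tubulin, which are needed for the triplet microtubules of centrioles, the structures from which the sperm axoneme grows. Tube1 stood at 15.7 and 15.3 CPM in CTRL and at 10.1 CPM in both Znhit1_KO libraries. Its log2 change of -0.62 (SE 0.195) had an edgeR unadjusted p of 0.0227 and an adjusted p of 0.379. Tubd1 stood at 12.9 and 13.5 CPM in CTRL and 9.76 and 6.22 CPM in Znhit1_KO, with a log2 change of -0.73 (SE 0.285; edgeR adjusted p = 0.464). Without Znhit1_KO replicate 2 the Tubd1 change was -0.45, and without Znhit1_KO replicate 1 it was -1.06. For both genes the CTRL libraries were close together, unlike those of the Agbl genes other than Agbl3. Tubg1, the gamma-tubulin that nucleates microtubules, overlapped at 41.2 and 50.4 CPM in CTRL and 39.8 and 47.9 CPM in Znhit1_KO. Tubg2, its paralogue, had a Znhit1_KO mean of 132% of CTRL and a log2 change of 0.41 (SE 0.368), which was 0.13 without Znhit1_KO replicate 1; its groups overlapped in TPM.

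Of 9 gamma-tubulin complex partners, 8 had a negative log2 change, beside 46.9% of all genes tested. In both Znhit1_KO libraries 4 of the 9 were lower and 1 was higher, beside 21.3% and 21.8% of all genes. At an edgeR unadjusted p under 0.05, 1 was lower, Cdk5rap2, which recruits the complex to centrosomes, beside 7.75% of all genes. Cdk5rap2 stood at 104.6 and 133.5 CPM in CTRL and 73.3 and 75.7 CPM in Znhit1_KO, a log2 change of -0.68 (SE 0.175; edgeR adjusted p = 0.323). Its TPM overlapped, at 41.1 and 42.4 in CTRL and 42.9 and 41.7 in Znhit1_KO, so the difference was seen in counts and not in the authors' TPM. Of 8 tubulin folding cofactors none had an unadjusted p under 0.05 by edgeR and none passed after adjustment, and the authors' deposited table marks none. Tbcb, a cofactor that handles alpha-tubulin, stood at 53.0 and 59.8 CPM in CTRL and 53.8 and 58.1 CPM in Znhit1_KO. The median of the 8 was -0.017. Of 8 microtubule severing genes, 7 had a negative log2 change, 6 were lower in both Znhit1_KO libraries and 3 had an unadjusted p under 0.05. The shares over all genes were 46.9%, 21.3% and 7.75%. Katnal2, a katanin-like gene, stood at 21.9 and 28.7 CPM in CTRL and 12.8 and 14.6 CPM in Znhit1_KO. Its log2 change was -0.88 (SE 0.222), and that of Katnal1, another katanin-like gene, was -0.77 (SE 0.177). None of the 8 passed edgeR over all genes, with a lowest adjusted p of 0.302, that of Katnal1.

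The enzymes of tubulin acetylation and detyrosination had a median of 0.14 over 6 genes. Atat1, the alpha-tubulin acetyltransferase, overlapped at 25.0 and 23.6 CPM in CTRL and 26.4 and 21.4 CPM in Znhit1_KO. Vash1, a tyrosine carboxypeptidase, stood at 6.90 and 7.45 CPM in CTRL and 10.5 and 11.6 CPM in Znhit1_KO, a log2 change of 0.62 (SE 0.218; edgeR adjusted p = 0.422). The deacetylase gene Hdac6 had a log2 change of 0.30 (SE 0.139), and Sirt2, another deacetylase gene, one of -0.50 (SE 0.230). None of the 6 passed edgeR over all genes, and 1 was higher at an unadjusted p under 0.05, beside 2.99% of all genes.

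Some members had the library order of the pachytene markers. For 9 of the 37 tested members (Tuba3b, Ttll5, Ttll6, Ttll13, Agbl2, Agbl3, Agbl4, Agbl5 and Tpgs2) the 4 libraries stood in the order of the summed pachytene markers, highest in CTRL replicate 2 and lowest in Znhit1_KO replicate 1, an order shared by 10.4% of all genes tested. Only genes lower in both Znhit1_KO libraries can have this order. Of the 5137 such genes 2519 had it, beside 9 of the 14 such members. Set against the marker sum, Tuba3b came to 312 and 338 CPM per 1000 CPM of pachytene markers in CTRL and 305 and 335 in Znhit1_KO, values that overlapped. Agbl5 came to 93.7 and 95.7 in CTRL and to 100.5 and 110.9 in Znhit1_KO. Agbl4 stood at 1.89 and 2.11 in CTRL and 0.636 and 0.616 in Znhit1_KO on this scale. The corresponding values were 24.9 and 24.5 against 16.3 and 16.5 for Ttll13 and 35.9 and 48.6 against 23.6 and 30.1 for Agbl2. Ttll6 had 4.57 and 4.09 against 3.76 and 3.68. Of the 14 members lower in both Znhit1_KO libraries, these 4 remained lower per pachytene marker CPM, 7 overlapped and 3 were higher. The marker sum weighs abundant genes most, and Hspa2, the highest of the 10 in every library, had a log2 change of -0.89. The median over the 10 markers was -1.73, with changes from -0.30 for Mybl1 to -4.12 for Adam3. A member lower on this scale need not have fallen further than the single markers. Of all 5137 genes lower in both Znhit1_KO libraries, 20% remained lower on this scale, and of all genes tested 4.26% were lower on it; the count of 4 is a description only.

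The pachytene markers were chosen with earlier results of these libraries known, and their part in the members' values was not tested beyond this ratio. On the same scale 26 of the 37 tested members were higher in both Znhit1_KO libraries, beside 66.9% of all genes, since the divisor was lower in both; nothing is read from that count.

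**Figure D5:**
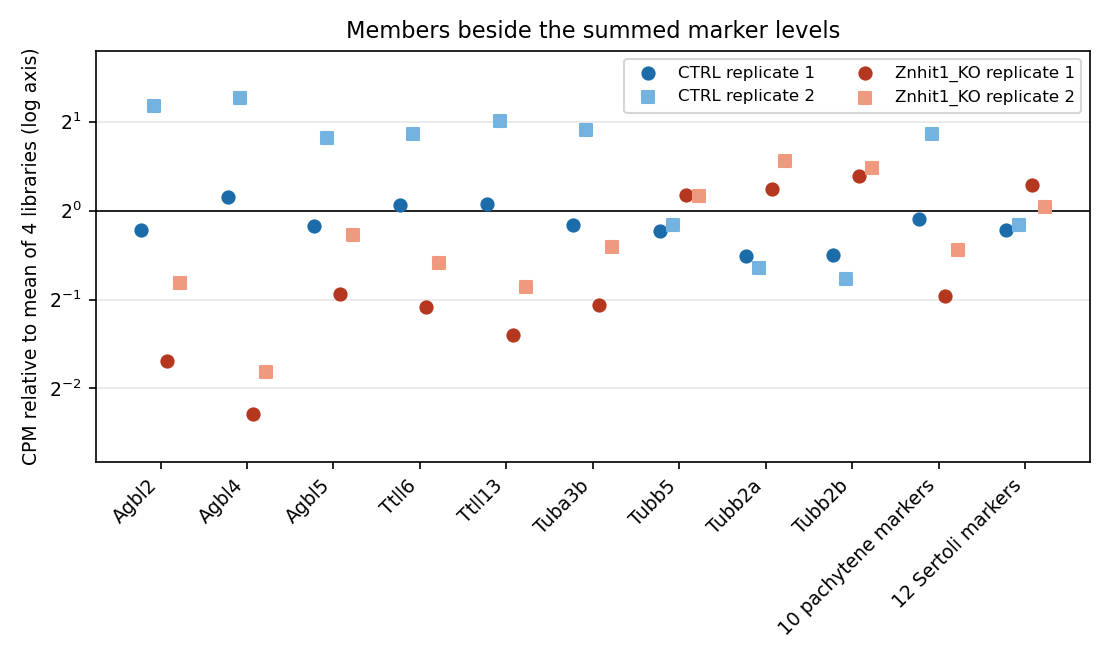
CPM of 9 members and summed CPM of the 10 pachytene and 12 Sertoli cell markers, each divided by its mean over the 4 libraries (log axis). Agbl2, Agbl4, Agbl5, Ttll6, Ttll13 and Tuba3b show the library order of the pachytene sum, which runs from 3455 in CTRL replicate 2 to 976 in Znhit1_KO replicate 1.

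The promoters of the 4 enzyme genes that the authors' deposited table marks lower are printed because that table names them together. Each is 300 bases, from 250 before to 50 after the RefSeq transcription start (GRCm38.p6, the mm10 build), on the plus strand. Capitals mark matches on either strand to the MYB core, searched with the words CAACGG, then CAACTG, then TAACGG and then TAACTG, or to the RFX half-site, searched with the words GTTGCC and then GTTACC. MYB factors and RFX factors are known regulators of pachytene and cilium genes, and the reverse complement of a MYB word can overlap an RFX word.
Agbl2, chr2:90782477-90782776: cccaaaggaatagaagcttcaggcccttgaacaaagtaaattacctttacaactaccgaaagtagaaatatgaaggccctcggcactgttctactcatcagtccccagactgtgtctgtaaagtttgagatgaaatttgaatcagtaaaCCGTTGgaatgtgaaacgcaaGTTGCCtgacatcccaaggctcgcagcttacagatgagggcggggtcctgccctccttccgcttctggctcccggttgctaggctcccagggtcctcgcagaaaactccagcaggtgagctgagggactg
Ttll6, chr11:96133536-96133835: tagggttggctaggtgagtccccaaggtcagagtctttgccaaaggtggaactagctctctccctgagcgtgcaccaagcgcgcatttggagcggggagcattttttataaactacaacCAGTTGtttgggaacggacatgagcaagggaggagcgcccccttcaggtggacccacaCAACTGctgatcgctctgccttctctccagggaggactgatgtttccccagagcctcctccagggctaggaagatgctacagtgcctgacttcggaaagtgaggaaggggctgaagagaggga
Agbl4, chr4:110397448-110397747: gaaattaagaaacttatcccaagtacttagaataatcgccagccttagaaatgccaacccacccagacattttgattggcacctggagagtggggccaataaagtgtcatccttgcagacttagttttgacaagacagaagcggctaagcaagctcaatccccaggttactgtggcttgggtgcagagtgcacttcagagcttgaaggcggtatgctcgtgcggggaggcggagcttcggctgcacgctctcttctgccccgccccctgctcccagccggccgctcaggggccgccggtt
Ttll13, chr7:80246126-80246425: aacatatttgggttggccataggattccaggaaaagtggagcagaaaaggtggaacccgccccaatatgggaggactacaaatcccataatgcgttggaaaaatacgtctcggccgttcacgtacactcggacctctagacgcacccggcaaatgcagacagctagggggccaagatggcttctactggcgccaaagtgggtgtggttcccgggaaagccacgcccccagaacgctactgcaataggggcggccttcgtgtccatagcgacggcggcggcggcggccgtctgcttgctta
The Agbl2 window holds 1 MYB match, 101 bases before the start, and 1 RFX half-site 80 bases before it; a second RefSeq window of Agbl2, farther downstream and not printed, holds 1 MYB match. Ttll6 has MYB matches 131 and 73 bases before its start, and the windows of Agbl4 and Ttll13 have no match to these letters. MYB words occur in 28.3% of all 32851 promoter windows and RFX half-sites in 18.6%. RefSeq windows were found for 34 of the 40 members, 39 windows in all, some of which overlap. A MYB word occurs in 16 of those windows, for 13 genes, and an RFX half-site in 13 windows, also for 13 genes. These are matches of letters and do not show binding.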

How the data were processed

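The deposited gene table holds whole-number estimated counts made by the authors. Per the submitters' processing notes they used mm10, DESeq2 1.38.3, StringTie 2.2.1, HISAT2 2.2.1 and cutadapt 2.5. Roles, settings, annotation and strandedness go unstated there. The value 4 was held by 1109 genes in CTRL replicate 1, against a mean of 736 for the values next to it, so counts were treated as estimates and no counting interval is given. The authors' deposited comparison table gives TPM per library, a mean normalised signal, log2 fold changes with their standard errors, Wald scores, p-values and adjusted p-values; it covers 25236 genes.

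The main test was edgeR's quasi-likelihood test (edgeR 4.0.16, R 4.3.3) on the counts as deposited, with TMM factors, filterByExpr, genotype as the only term, all 4 libraries and Benjamini-Hochberg adjustment at 0.05. Standard errors come from the F statistic. CPM were TMM-normalised. DESeq2 1.42.0, limma 3.58.1 (voom), total count and Sertoli marker scaling, no filter, a replicate block and leaving out each library were alternatives. The fits were also run on simulated counts, drawn independently for each library. The outcome is not reported here and vouches for no call in these data. Positions and transcripts are from GENCODE M21 (mm10). Every member could be named, and those with a mean of at least 1 CPM were given in more detail. Membership follows gene symbols, but the gene families and the lists were picked with earlier results of these data known. All results come from 2 libraries per group, labelled as independent biological replicates. The values of 1 severing gene and 2 coding ends are not reported here.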

Additional observations from a re-analysis of the deposited data

How the results depend on the processing

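edgeR called 0 genes; it called 626 genes and 4 members (Agbl2, Agbl4, Tuba3b and Ttll13) without CTRL replicate 1, and 0 without any other library. DESeq2 called 1041 genes and 7 members, and limma-voom, total count scaling and no filter called 0. Sertoli marker scaling called 90 genes and 0 members. With the replicate number as a block, edgeR called 2737 genes and 15 members; deviations of same-numbered libraries correlated at 0.421 across genes, but 2 pairs cannot show that the numbers pair the samples. Members with no overlap numbered 23 lower and 2 higher with Sertoli marker scaling, which moved the median of all genes to -0.32. With 1 library left out, between 16 and 20 were lower and between 11 and 14 higher. In that setting 1 group holds a single library, so groups separate more easily. The shares over all genes in these settings are not given here, and nothing is read from the counts. Sertoli marker scaling gave medians of -0.42 for all members, -0.20 for alpha-tubulins, -0.038 for beta-tubulins, -0.68 for gamma-, delta- and epsilon-tubulins, -0.84 for glutamylases, -0.0047 for glycylases with Ttll12 and -0.37 for the complex subunits. With 1 library left out the glutamylase median ran from -0.72 to -0.23 and that of glycylases with Ttll12 from 0.20 to 0.72. Without length normalisation Tubb4b made up 60.5% of beta-tubulin in CTRL and 50.9% in Znhit1_KO. The sign of a log2 change turned for Tuba1a (-0.20), Tuba1b (-0.25), Tuba4a (-0.055), Tuba8 (-0.061), Tubb3 (-0.038), Tubb6 (-0.23), Tpgs1 (-0.086), Ttll10 (-0.0047) and Ttll12 (-0.0048) with Sertoli marker scaling, and for Ttll4 (0.0093) with total count scaling. With 1 library left out, the changes that turned sign ran from -0.14 to 0.12 for Ttll4, -0.21 to 0.094 for Tubg1, -0.33 to 0.24 for Tubb4a, -0.040 to 0.26 for Tubb6, -0.42 to 0.026 for Tubb4b, -0.22 to 0.010 for Ttll11, -0.17 to 1.19 for Ttll10, -0.32 to 0.21 for Ttll3, -0.63 to 0.80 for Tuba8 and -0.020 to 0.64 for Tubb3. The cause of these differences was not tested, except that scaling shifts all genes together.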

Other observations

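Ttl, the ligase that puts the terminal tyrosine back on alpha-tubulin, and Agtpbp1, which encodes the carboxypeptidase CCP1, fall outside the symbol rule and were chosen after the data were seen. Agtpbp1 stood at 82.8 and 111.6 CPM in CTRL and 63.6 and 73.4 CPM in Znhit1_KO, below CTRL in both libraries, with a log2 change of -0.51 (SE 0.202; edgeR adjusted p = 0.469). Ttl overlapped between groups, at 8.91 and 7.35 CPM in CTRL and 10.2 and 8.57 CPM in Znhit1_KO.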
